A study of Mus musculus with 7 samples.

Results

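The genes described here are Sfn, Lgals7, Lgals3, Gabrp, Tgm1, Aqp3 and Trim29, 7 genes of periderm and surface epithelium. They were chosen by name, as the non-control probes whose gene name in the scanner files is one of the 7, and each gene has 1 probe with 1 spot. They are 7 of the 36373 genes on the array and 7 of its 55681 probes. The periderm is the transient outer cell layer of the embryonic epidermis, which covers the basal keratinocytes until the skin barrier forms. Epidermal cells that leave the basal layer switch on regulators of differentiation and the enzymes that later cross-link the cornified envelope. Keratinocytes also make carbohydrate-binding galectins and membrane channels. In the limb bud the surface epithelium thickens at the rim into the apical ectodermal ridge (AER), which sends growth signals to the mesenchyme beneath it and carries a periderm of its own.

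Total RNA came from C57/Bl6 mouse forelimbs at embryonic day 11.5, and the labels name no allele, transgene or treatment. Microdissected AER was hybridised to 3 arrays and surface ectoderm of the posterior limb to 4, on 1-colour Agilent microarrays with 75 ng of RNA labelled with Cy3. Tissue of 2 to 3 mice was pooled for every replicate, so p-values measure the spread between pools. All 7 arrays shared 1 slide and 1 scan time. A level is given as the processed signal of the probe on that array (an intensity in scanner units, not scaled between arrays), and a difference as a log2 value after each array's 75th percentile was subtracted, AER minus ectoderm.

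Marker genes bore out the AER label, and mesenchyme transcripts were present on the arrays of both groups. The ectoderm pools had more of these and more muscle transcripts. The 75th percentile of the signal ran from 341 to 563 in AER and from 257 to 444 in ectoderm, and 48.7% to 55.2% of spots were well above background. Of the AER markers, 12 of 12 were higher in AER, with a median log2 difference of 3.41. Pan-epithelial genes, with 20 of 21 above background on every array, were also higher on the AER arrays. Their summed signal, in multiples of the array's 75th percentile, was 117 to 131 in AER and 39.8 to 49.1 in ectoderm, and 15 of 20 tested were higher and 0 lower, with a median of 1.61. Limb mesenchyme markers moved the other way, with summed signals of 211 to 246 on AER and 497 to 736 on ectoderm arrays, 13 of 15 lower in AER. Each AER array had 11 to 14 of the 15 mesenchyme markers above background. Only Kera, a proteoglycan of connective tissue, was not well above background on any AER array. Muscle progenitor markers summed to 1.89 to 5.58 on AER and 73.0 to 184 on ectoderm arrays, with 7 of 7 lower. The sums for endothelial markers were 13.5 to 20.3 and 16.2 to 21.6, for macrophage markers 16.6 to 26.7 and 18.5 to 24.3, and for erythroid markers 2303 to 2717 and 2819 to 3624, and 0 genes of these lists passed the test. Melanoblast and neural markers were brighter in AER, at 7.59 to 9.74 against 4.31 to 4.96, with 2 of 8 higher. These were Dct, a melanin synthesis enzyme (log2 difference 4.71, adjusted p = 0.00136), and Tubb3, a neuronal tubulin (1.80, adjusted p = 0.000518). Ectoderm replicates 2 and 4 were the most alike of all pairs across genes (r = 0.995), and whether they are separate pools or 1 RNA cannot be told apart; they were counted as 2 replicates. The part that this makeup of the pools plays in the values below was not tested, and in bulk RNA fewer cells of a type cannot be told apart from less RNA per cell.

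All 7 genes were well above background on all 7 arrays, and 0 were saturated. Sfn, Tgm1 and Trim29 were higher in AER, 0 genes were lower, and Lgals7, Lgals3, Gabrp and Aqp3 did not pass the test. Of all 20828 genes tested, 15.7% passed, 7.03% as higher and 8.65% as lower in AER (limma's moderated test, adjusted p under 0.05 by Benjamini-Hochberg). Among the 28282 probes kept, without choosing 1 for each gene, 15% passed and 6.98% were higher in AER, and the same 3 of the 7 probes were higher. The groups were fully separated, with no overlap, for the same 3 genes, all higher in AER. Over all genes 30.3% were separated in this way, 12.5% as higher and 17.8% as lower in AER. The median difference of the 7 was 0.30, and that of all genes was -0.08. The summed signal of the 7 was 12.0 to 17.6 times the 75th percentile in AER and 4.61 to 7.48 in ectoderm.

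**Figure D1:**
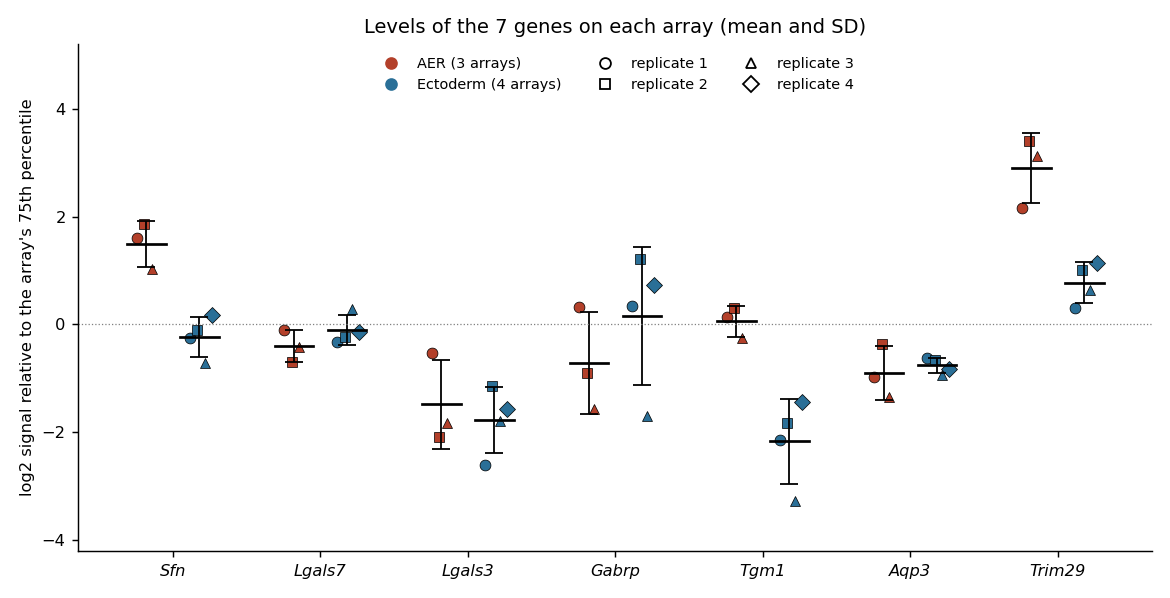
Levels of the 7 genes on each array, as log2 signal relative to the array's 75th percentile (vertical axis), with AER arrays in red, ectoderm arrays in blue, a marker shape for each replicate number, and bars for the mean and SD. For Sfn, Tgm1 and Trim29 all 3 AER arrays lie above all 4 ectoderm arrays, and for the other 4 genes the groups overlap.

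Promoter windows were compared for the genes that moved together and those that did not, using RefSeq sequence of the GRCm38.p6 build, in which 6 of the 7 genes had an entry. Trim29 had none. Each window holds the 250 bases before an annotated transcript start. Sfn was higher in AER and has none of the motifs searched, while Aqp3 did not pass the test and is the 1 gene of the 6 with a TATA box, so these are the 2 windows shown. They lie at chr4:133602169-133602418 (minus strand, Sfn) and chr4:41098184-41098433 (minus strand, Aqp3). They are written 5′ to 3′ along the gene, and the capitals mark a GC box or TATA box on either strand.
Sfn: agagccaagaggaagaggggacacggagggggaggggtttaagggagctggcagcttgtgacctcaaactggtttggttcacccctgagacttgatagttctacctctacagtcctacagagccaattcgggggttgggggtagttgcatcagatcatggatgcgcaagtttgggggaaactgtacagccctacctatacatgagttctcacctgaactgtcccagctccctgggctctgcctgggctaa
Aqp3: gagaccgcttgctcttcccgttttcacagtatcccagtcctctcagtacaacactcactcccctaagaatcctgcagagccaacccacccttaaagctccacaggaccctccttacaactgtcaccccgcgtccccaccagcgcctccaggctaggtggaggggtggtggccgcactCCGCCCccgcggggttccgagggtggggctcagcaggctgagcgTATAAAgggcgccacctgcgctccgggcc

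Of the 6 genes, Tgm1 has 2 windows and the others have 1 each. The GC box (GGGCGG) was found in Lgals7, Lgals3, Tgm1 (window 1 only) and Aqp3, 4 of 6 genes. Counted by window and not by gene, it was found in 32.7% of all 32851 windows. In Aqp3 its first base lay at -73 and that of the TATA box (TATAAA) at -29, counted back from the start, and 12.4% of all windows hold a TATA box. The other motifs searched on both strands were in 0 of 6 genes. These were AP-2 (GCCNNNGGC, 13.7% of windows), Grainyhead (AACCGGTT, 0.116%), AP-1 (TGANTCA, 6.75%) and the p53-family half-site (7.13%). No match of 1 motif overlapped a match of another. Sfn, which was higher in AER, and Gabrp, which did not pass the test, had no match to any of the 6 motifs, and Tgm1, also higher, shared the GC box with 3 genes that did not pass. A match is a description of letters and not a site of binding.

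The enzyme gene of the set is Tgm1, transglutaminase 1, which cross-links proteins of the cornified envelope beneath the keratinocyte membrane. Its probe lies at chr14:56319032-56319091 on the minus strand of mm9, and the exon or untranslated region under this and the other probes was not looked up. The signal of Tgm1 was 375, 693 and 329 on AER replicates 1, 2 and 3, and 92.2, 125, 26.7 and 128 on ectoderm replicates 1 to 4. The lowest AER array was above the highest ectoderm array, and ectoderm replicate 3 was dimmer than the other ectoderm arrays. Tgm1 was 4.69-fold higher in AER (95% CI 2.52 to 8.73; log2 difference 2.23, SE 0.39; adjusted p = 0.00565). The normexp background correction brought its log2 difference to 1.17, still past the test (adjusted p = 0.000915). The difference of Tgm1 was larger than that of all but 1.19% of genes tested.

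The other 4 transglutaminase family genes tested did not pass. Tgm2, the widely expressed tissue transglutaminase, had a log2 difference of 0.35 and Tgm3, a second epidermal enzyme, of 0.30. F13a1, the A chain of clotting factor XIII, was at -0.49. The family median without Tgm1 was 0.14, and of the 9 family genes on the array 4 were too dim to test.

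The pair of intracellular regulators moved with Tgm1. Sfn encodes stratifin, or 14-3-3 sigma, an adaptor protein of differentiating keratinocytes that restrains their proliferation. Its probe lies at chr4:133156842-133156901 on the minus strand of mm9. The signal of Sfn was 1032, 2035 and 800.2 on AER replicates 1 to 3, and 342, 411, 156 and 389 on ectoderm replicates 1 to 4. AER replicate 2 was the brightest and ectoderm replicate 3 the dimmest, and the groups did not overlap. Sfn was 3.30-fold higher in AER (95% CI 2.18 to 4.99; log2 difference 1.72, SE 0.26; adjusted p = 0.00260). None of the other 6 genes of the 14-3-3 family passed, and their median difference was -0.15. They ran from Ywhah at -0.32 to Ywhag at 0.18, both general adaptor isoforms, so Sfn was the single member of its family to pass the test.

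Trim29 encodes a tripartite motif protein of basal and stratified epithelia. Its probe lies at chr9:43144032-43144092 on the plus strand of mm9. The signal of Trim29 was 1530, 5948 and 3426 on AER replicates 1 to 3, and 506, 891, 399 and 765 on ectoderm replicates 1 to 4. Every AER array was brighter than every ectoderm array, and AER replicates 2 and 3 were above AER replicate 1. Trim29 was 4.36-fold higher in AER (95% CI 2.63 to 7.24; log2 difference 2.12, SE 0.32; adjusted p = 0.00251). The differences of Sfn and Trim29 were larger than those of all but 2.06% and 1.32% of genes tested.

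The calls of Sfn, Tgm1 and Trim29 were lost under another scale and in part within the slide rows. Centring each array on 20 pan-epithelial genes lowers every difference by 1.68, and 15 of these 20 were higher in AER before it. Over all 20828 genes the centring called 204 higher and 19755 lower. It left Sfn at 0.04 (adjusted p = 0.872), Tgm1 at 0.55 (adjusted p = 0.108) and Trim29 at 0.45 (adjusted p = 0.141). The arrays lay in 2 rows of the slide, with AER replicate 1 and ectoderm replicates 1 to 3 in row 1 and AER replicates 2 and 3 and ectoderm replicate 4 in row 2. Sfn differed by 1.96 in row 1 (adjusted p = 0.0492) and 1.27 in row 2 (adjusted p = 0.181). Tgm1 differed by 2.55 in row 1 (adjusted p = 0.104) and 1.46 in row 2 (adjusted p = 0.0825), and Trim29 by 1.52 (adjusted p = 0.0874) and 2.11 (adjusted p = 0.00447). All 3 were positive in both rows, and with the slide row as a block they were 1.64, 2.04 and 1.80, each past the test. Each row has 1 group with a lone array, which is assumed to vary like the others.

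**Figure D2:**
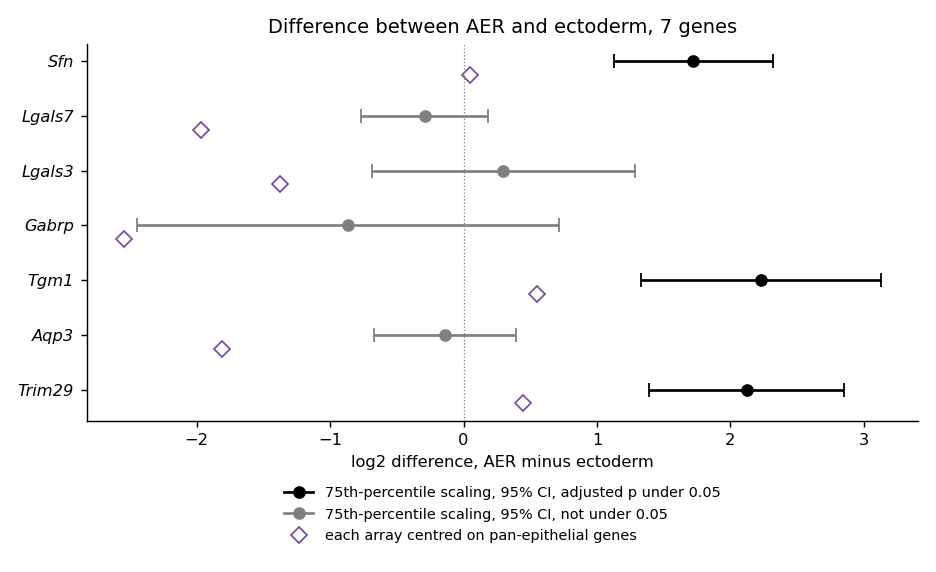
Difference between AER and ectoderm for each of the 7 genes on a log2 axis (AER minus ectoderm), with the 95% confidence interval after 75th-percentile scaling (filled circles, black where the adjusted p is under 0.05) and the value after centring on pan-epithelial genes (open diamonds). Sfn, Tgm1 and Trim29 are at 1.72, 2.23 and 2.12 before and 0.04, 0.55 and 0.45 after the centring.

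Neither galectin of the set passed the test. Lgals7 encodes galectin-7, a lectin typical of stratified epithelia. Its probe lies at chr7:29650625-29650684 on the plus strand of mm9, and its sequence is shown because its signal was among the steadiest on the slide.
Lgals7: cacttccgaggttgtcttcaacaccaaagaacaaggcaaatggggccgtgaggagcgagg

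No other probe on the array has this sequence. The signal of Lgals7 was 319, 349 and 295 on AER replicates 1 to 3, and 324, 376, 314 and 312 on ectoderm replicates 1 to 4. The brightest array was 1.27 times the dimmest, and the groups overlapped. The SD of its unscaled log2 signal over the 7 arrays was 0.116, smaller than that of all but 0.692% of genes tested, while the 75th percentile of the arrays ranged from 257 to 563. After scaling, Lgals7 had a log2 difference of -0.29 (95% CI -0.77 to 0.18; adjusted p = 0.368), and without any scaling the difference was -0.05. On the scaled values ectoderm replicate 3, the array with the lowest 75th percentile, was the highest and AER replicate 2 the lowest.

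**Figure D3:**
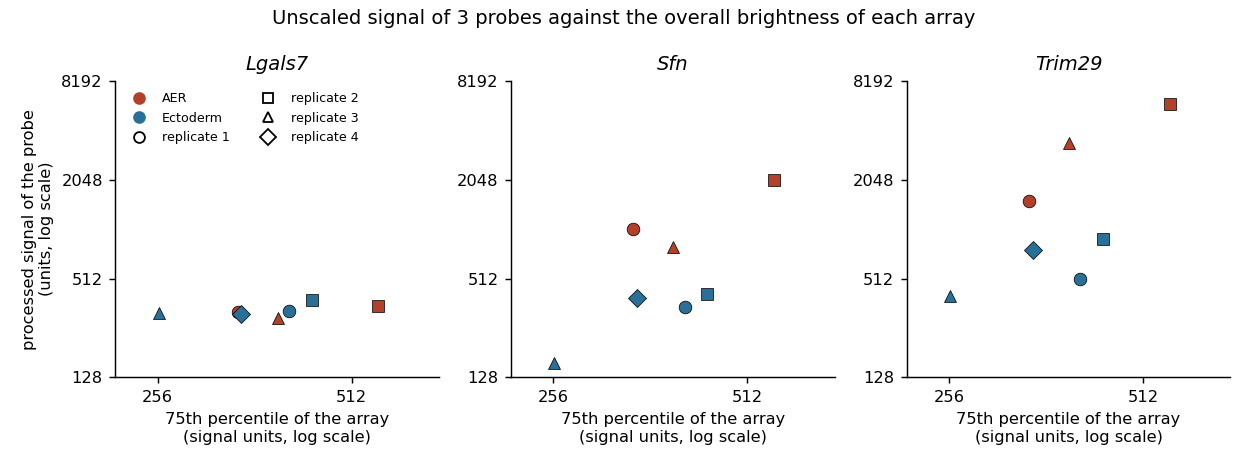
Processed signal of the Lgals7, Sfn and Trim29 probes (vertical axes, scanner units, log scale) against the 75th percentile of the same array (horizontal axes, scanner units, log scale), one point per array with AER in red and ectoderm in blue. Lgals7 stays between 295 and 376 on all 7 arrays, while Sfn and Trim29 are higher on the 3 AER arrays than on the 4 ectoderm arrays.

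Lgals3 encodes galectin-3, made by epithelia and by macrophages. Its probe lies at chr14:48005414-48005473 on the plus strand of mm9 and had the lowest share of G and C of the 7, at 35.0%. The signal of Lgals3 was 235, 133 and 111 on AER replicates 1 to 3, and 67.4, 200.5, 73.9 and 116 on ectoderm replicates 1 to 4. AER replicate 1 was brightest and ectoderm replicate 1 dimmest, and the remaining arrays of both groups lay among each other. Lgals3 had a log2 difference of 0.30 (95% CI -0.69 to 1.28; adjusted p = 0.671), and leaving out AER replicate 1 turned it to -0.18. Its sign was also turned by normexp, the centring and row 2 of the slide, so no direction is given for it.

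Among the 8 other galectin family genes tested, 0 were higher and 2 lower in AER. Lgals1, a galectin abundant in mesenchyme and muscle, was 3.98-fold lower in AER (log2 difference -1.99, adjusted p = 0.00224). Lgals8, a galectin with a pair of carbohydrate-binding domains, was 1.61-fold lower (log2 difference -0.69, adjusted p = 0.0295). The Lgals8 call was lost when any of AER replicates 1 and 3 or the 4 ectoderm replicates was left out (adjusted p up to 0.0938) and with normexp (-0.35, adjusted p = 0.161). Mesenchyme and muscle markers, with the sums given above, were lower on the same AER arrays, and their part in the Lgals1 value was not tested.

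On the scaled log2 values, the channel genes had the widest (Gabrp) and the narrowest (Aqp3) range of the 7 over the ectoderm arrays. Aqp3 encodes a water and glycerol channel of the basal keratinocyte membrane, with its probe at chr4:41039962-41040021 on the minus strand of mm9. The signal of Aqp3 was 172, 440 and 154 on AER replicates 1 to 3, and 266, 280.4, 134 and 195 on ectoderm replicates 1 to 4. On this unscaled signal AER replicate 2 was brighter than every ectoderm array, and the other AER arrays were within the ectoderm range. On the scaled log2 values AER replicates 1 and 3, at -0.98 and -1.35, lay below the lowest ectoderm array, at -0.93. AER replicate 2, at -0.36, lay above all ectoderm arrays. Aqp3 had a log2 difference of -0.14 (95% CI -0.67 to 0.40; adjusted p = 0.724), and its sign turned without scaling (0.11) and without AER replicate 3 (0.09). Of the 4 other aquaporin genes tested, Aqp11, an aquaporin of intracellular membranes, was 1.63-fold lower in AER (log2 difference -0.71, adjusted p = 0.0353). That call was lost when AER replicate 2 or 3 or ectoderm replicate 1, 2 or 4 was left out (adjusted p up to 0.100), with the slide row as a block (-0.63, adjusted p = 0.106) and with normexp (-0.37, adjusted p = 0.171).

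Gabrp encodes the pi subunit of the GABA-A receptor, a chloride channel subunit found in epithelia outside the nervous system. Its probe lies at chr11:33450919-33450978 on the minus strand of mm9. The signal of Gabrp was 424, 302 and 133 on AER replicates 1 to 3, and 516, 1035, 79.3 and 575 on ectoderm replicates 1 to 4. Ectoderm replicate 3 was the dimmest of all 7 arrays and ectoderm replicate 2 the brightest, so the ectoderm arrays alone spanned 2.91 on the scaled log2 axis. Gabrp had a log2 difference of -0.87 (95% CI -2.44 to 0.71; adjusted p = 0.421). It was 0.36 in slide row 1 (adjusted p = 0.901) and -1.97 in row 2 (adjusted p = 0.0107), and without ectoderm replicate 3 it was -1.48.

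The other GABA-A receptor subunits gave 1 higher, 1 lower and 3 not past the test of 5 tested, and 13 of the 19 on the array were too dim to test. Gabrb2, a beta subunit, was 4.59-fold higher in AER (log2 difference 2.20, adjusted p = 0.000956) and was above background on 3 AER and 2 ectoderm arrays. Gabra3, an alpha subunit, was 5.38-fold lower (log2 difference -2.43, adjusted p = 0.000403) and was above background on 1 AER and 4 ectoderm arrays. With normexp these values were 0.74 and -1.14.

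Individual arrays were not uniformly high or low over the 7 genes. Ectoderm replicate 3 had the lowest scaled value of the ectoderm arrays for Sfn, Gabrp, Tgm1 and Aqp3, and the highest for Lgals7. That array also differed in its markers. Its AER marker sum was 71.5 times the 75th percentile, against 36.2 to 39.9 on the other ectoderm arrays. Its mesenchyme and muscle sums, 497 and 73.0, were the lowest of the ectoderm arrays. The part of this makeup in its values for the 7 genes was not tested. AER replicate 2 was the highest AER array for 4 of the genes and AER replicate 3 the lowest for 4. Leaving out each array in turn kept Sfn between 1.54 and 1.96, Tgm1 between 1.86 and 2.47 and Trim29 between 1.87 and 2.49, all past the test, with 3 genes higher and 0 lower each time.

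Wider epithelial gene lists were set beside the 7. Of 20 tested periderm and simple epithelial genes, 11 were higher in AER, 0 lower and 9 did not pass, with a median of 1.33. Centred on pan-epithelial genes, 2 were higher and 9 lower, and over all 20828 genes that centring called 204 higher and 19755 lower. Klf4, a barrier regulator, was at 1.86 (adjusted p = 0.000374), and Grhl2, a Grainyhead-like factor of epithelial junctions, was at 1.79 (adjusted p = 0.000497). Ovol1, a zinc finger repressor of the differentiating epidermis, was at 2.84 (adjusted p = 0.000592), and at 1.33 with normexp. The Ovol1 probe exceeded background on 2 of the 4 ectoderm arrays. Under the centring Ovol1 was higher, at 1.17, and Klf4 and Grhl2 did not pass, at 0.18 and 0.12.

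The basal keratinocyte list gave 9 higher, 1 lower and 3 not past the test of 13 tested, with a median of 1.39. The lower gene was Krt15, at -5.60 (adjusted p = 0.00129), above background on 2 AER and 4 ectoderm arrays. Under the centring 2 were higher and 5 lower, against the same 204 and 19755 of 20828 genes. Lamb3, a chain of laminin-332 in the epidermal basement membrane, was at 2.79 (adjusted p = 0.000120), and at 1.44 with normexp. Itga6, the integrin subunit that binds this laminin, was at 1.67 (adjusted p = 0.000314), which the centring brought to -0.0050 (adjusted p = 0.984). Jag2, a Notch ligand, was at 1.80 (adjusted p = 0.00126), and at 0.13 under the centring.

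Genes of the later cornified and spinous layers were mostly too dim to test, at 15 of 29. Of the 14 tested, 1 was higher, 2 lower and 11 did not pass, with a median of 0.07. Ppl, periplakin, a plaque protein cross-linked into the envelope, was at 2.41 (adjusted p = 0.0227), and without AER replicate 2 at 1.77 (adjusted p = 0.0581). With the slide row as a block Ppl was at 2.07 (adjusted p = 0.0619), and with normexp at 1.81. Sbsn, suprabasin, was at -0.77 (adjusted p = 0.0103), and at -0.49 with normexp (adjusted p = 0.0803). Krt10, the keratin of suprabasal cells, was at -0.87 (adjusted p = 0.0296). Krt10 no longer passed without AER replicate 1 or 2, or without any 1 of the ectoderm arrays (adjusted p up to 0.0810), or with the slide row as a block (adjusted p = 0.0733).

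The genes whose pattern over the 7 arrays was most like each of the 7 were found by Pearson's r among 14124 genes with a RefSeq symbol. The arrays share a slide and a scaling, and the value holds the group difference as well as the spread within groups, so it is a description. Sfn was most like Acbd4 (r = 0.997) and Eppk1 (r = 0.992), Tgm1 most like Lypd3 (r = 0.995) and Anxa9 (r = 0.992), and Trim29 most like Tmem159 (r = 0.998) and Trpv4 (r = 0.997). All 6 of these were higher in AER, with log2 differences from 0.58 for Tmem159 to 3.01 for Lypd3. Eppk1, or epiplakin, is a cytolinker of keratin filaments, and Lypd3 is a surface protein of suprabasal keratinocytes. For the genes that did not pass, the most similar genes were En2 and Aarsd1 for Lgals7 (r = 0.991 and 0.987), Wbp2 for Lgals3 (r = 0.962), Narf and Fcrls for Gabrp (r = 0.981 and 0.977), and Zfp346 and Cab39l for Aqp3 (r = 0.987 and 0.979).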

How the data were processed

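Per the file headers, the scanned arrays were quantified with Agilent Feature Extraction 10.7.3.1, whose processed signal is a background-subtracted intensity. The deposited files also hold mean and background intensity and other columns, per the file headers, the flags for spots above background, saturated or outlying. The authors' deposited matrix holds log2 values, matched to within 0.000108 by normexp (offset 50) and quantile normalization. Per the submitters' processing notes limma was used.

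Here, control and outlier-flagged spots were left out, spots of a probe were averaged as log2 processed signal, and the 75th percentile of the array's non-control probes was taken off. Probes well above background on at least 3 arrays were kept (28282, 50.8%), with the probe of highest mean for each gene. Of 55681 probes, 26300 took their name from a RefSeq accession. Groups were compared with limma 3.58.1 (R 4.3.3) with 5 residual degrees of freedom, and adjusted over 20828 genes. At probe level 3 of the 7 probes were higher, against 6.98% of 28282. The fit was tested on simulated data. Probe positions are on mm9, per the file headers.

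The 7 genes and all lists were chosen with earlier results of these data known. Besides the 7, up to 4 called genes with the smallest p of each list and the 2 most similar genes are named. A few genes that this rule takes are not reported here. Genes and markers named outside that rule were picked with their values known. Other settings tried were background, scaling, filters, slide row, replicate block, array weights and arrays left out. Number-matched arrays deviated from their group means with r = -0.03, 0.19 and 0.13, so pairing was not taken from the numbers.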

Additional observations from a re-analysis of the deposited data

How the results depend on the processing

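Over 23 alternatives, 21 kept the call for Sfn, 20 for Tgm1 and 21 for Trim29, and the sizes ran from 0.04 to 1.97, 0.55 to 2.55 and 0.45 to 2.49. The alternatives are not independent, so these counts do not measure robustness. The authors' processed values repeat normexp with quantile normalization, and the replicate block gives the same differences as leaving out ectoderm replicate 4. The filter settings and the mean of all probes leave the differences of these genes unchanged. Centring on pan-epithelial genes gave 0 of the 7 genes (and 0 of their probes) higher and 4 lower, namely Lgals7 (-1.97), Lgals3 (-1.38), Gabrp (-2.54) and Aqp3 (-1.81). It gave 19959 calls over all genes, against 3266, and turned Itga6 to -0.0050. Within slide row 1 the calls were 651 with 1 of the 7 genes (1 probe) higher, and within row 2 they were 1390 with 1 gene (1 probe) higher and 1 lower. Leaving scaling out, an alternative chosen after seeing the data, gave 1715 calls. The sign of Lgals3 turned with normexp and the 75th percentile (-0.10), normexp and quantile normalization (-0.0058), the authors' processed values (-0.0058), and within row 2 (-0.38). Gabrp turned in row 1 (0.36), and Aqp3 turned without scaling (0.11). With arrays left out in turn, Lgals3 ran from -0.18 to 0.60, Aqp3 from -0.41 to 0.091, and the calls over all genes from 2199 to 3275. A row holds fewer arrays than the full fit, and the centring lowers every difference by the same constant. The causes of these changes were not tested.

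Of the 3266 calls 44.8% were higher in AER. The share was 57.4% with the percentile taken only over probes that were above background on every array, 61.3% without scaling and 1.02% with the centring, and these moved the median of all genes by 0.10, 0.25 and -1.68. Normexp with quantile normalization moved it by 0.12.

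The replicate numbers were tested as pairs. Same-numbered arrays deviated from their group means with r = -0.03, 0.19 and 0.13, negative for 1 of the 3 pairs. AER replicate 2 was closest to ectoderm replicate 2 (r = 0.19), and AER replicates 1 and 3 were both closest to ectoderm replicate 3 (r = 0.18 and 0.13), so pairing was not taken from the numbers. With the replicate block 2443 genes passed, with 3 of the 7 higher. Ectoderm replicates 2 and 4 may be 1 RNA, and averaging them, which leaves 3 ectoderm values, gave 2264 calls, no call for Lgals8, Krt10 and Aqp11, and log2 differences of 1.81 for Sfn, 2.41 for Tgm1 and 2.22 for Trim29. The number of arrays limits the precision.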
